A study of Mus musculus with 4 samples.

Results

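The genes described are the 3 D-type cyclins (Ccnd1, Ccnd2 and Ccnd3), the 3 Cip/Kip inhibitors of cyclin-dependent kinases (Cdkn1a, Cdkn1b and Cdkn1c) and 3 INK4 inhibitors (Cdkn2a, Cdkn2b and Cdkn2c). These 9 members were chosen by name from the 32288 features of the deposited single-cell count table. All 9 were found, and they were read over the 8 cell types and 9 tuft and enteroendocrine subtypes that the authors assigned to the cells. Levels are given as CPM, the unique molecules (UMIs) of a gene in all cells of a type and mouse, scaled to the same total of UMIs for each type and mouse. UMIs come from the 3′ ends of transcripts, so levels are compared between types for 1 gene and not between genes. The member genes lie at chr7:144929931-144939925 (Ccnd1), chr6:127125162-127152193 (Ccnd2), chr17:47505051-47599691 (Ccnd3), chr17:29090976-29100727 (Cdkn1a), chr6:134920401-134925513 (Cdkn1b), chr7:143458339-143461050 (Cdkn1c), chr4:89274471-89294653 (Cdkn2a), chr4:89306299-89311039 (Cdkn2b) and chr4:109660876-109667189 (Cdkn2c) of mm10 in the GENCODE annotation.

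The study profiled pancreas cells after injury with caerulein, a secretagogue peptide that causes pancreatitis and drives acinar cells into metaplasia. All 4 mice had the genotype Ptf1aCre-ERTM;ROSAYFP/+ on a background crossed back into CD-1 and were 10 weeks old when injury began. Each had received tamoxifen by gavage at 5 mg per day on 5 days a week for 2 weeks beforehand, so that Cre driven by the acinar gene Ptf1a switched on EYFP. Caerulein was given for 2 weeks to 2-week mouse 1 and 2 and for 4 weeks to 4-week mouse 1 and 2, and live EYFP-positive cells were sorted for 10x 3′ libraries. No mouse without injury was analysed here. The typed cells, all with an EYFP UMI, are taken to descend from cells with active Ptf1a-Cre, which was not tested cell by cell. The labels do not say whether mice shared a litter, a sort or a library batch.

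D cyclins are induced by mitogens and bind Cdk4 and Cdk6, and these kinases phosphorylate the retinoblastoma protein and open the way from G1 into S phase. INK4 proteins block Cdk4 and Cdk6, and Cip/Kip proteins bind cyclin-kinase complexes more widely and restrain Cdk2 in particular. Tuft cells, chemosensory cells with a brush of microvilli, and enteroendocrine cells, which secrete hormones, are differentiated cells that arise in metaplastic epithelium, and cell-cycle exit is part of such differentiation in the gut and the endocrine pancreas.

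The typed cells numbered 13362, between 2814 and 3974 per mouse, with 60224505 to 90547790 UMIs per mouse and a median of 13464 to 20807 UMIs per cell. All 13362 held an EYFP UMI, and 25 cell barcodes in all were shared between 2 mice. MucinDuctal cells, the metaplastic type used as reference, numbered 3983, tuft cells (type Tuft) 1280 and enteroendocrine cells (type EEC) 1208. Tuft cells carried 10156 to 11731 CPM of 10 tuft markers, against 39.3 to 120 CPM in MucinDuctal cells. EEC cells carried 46108 to 181399 CPM of 13 enteroendocrine markers, against 100.1 to 393 CPM in MucinDuctal cells, and the labels matched their markers. The leukocyte gene Ptprc was at 25.8 to 82.6 CPM in Tuft cells, at 0.64 to 5.33 CPM in EEC cells and at 279 to 562 CPM in B cells of the same libraries. Tuft/EEC.Progenitor cells numbered 10 in 2-week mouse 1, so that type was compared over the other 3 mice.

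For each of Cdkn1a and Cdkn2c, the sequence before 1 start site is shown. Cdkn1a was the member that differed most from MucinDuctal cells in both Tuft and EEC cells, and Cdkn2c the one that differed most between Tuft and EEC cells. RefSeq windows on GRCm38.p6 matched 6 of the 9 members, 10 windows in all; Ccnd1, Ccnd2 and Cdkn1c were not matched. Each line gives bases before a start site, and capitals mark a motif. In Cdkn1a these are the E-box CAGGTG, 187 bases before the start, and TATAA, 25 bases before it, in the window chr17:29093569-29093768 on the plus strand. In Cdkn2c they are the E2F-type letters TTTCGCG, 200 bases before the start, in chr4:109665493-109665592 on the minus strand. Both stretches lie inside the gene spans given above, so they precede start sites within the gene and not its outermost one. Another Cdkn1a window, chr17:29090729-29091028, held TATAA 227 bases before its start and is not printed.
Cdkn1a: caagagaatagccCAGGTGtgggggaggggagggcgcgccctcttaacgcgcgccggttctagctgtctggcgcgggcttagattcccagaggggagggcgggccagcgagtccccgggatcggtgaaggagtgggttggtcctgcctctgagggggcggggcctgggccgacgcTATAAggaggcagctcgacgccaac
Cdkn2c: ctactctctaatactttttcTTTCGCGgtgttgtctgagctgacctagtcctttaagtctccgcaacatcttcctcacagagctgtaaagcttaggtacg
These letters and a second E-box, CAGCTG, were searched on both strands in the 250 bases before each start site. Of 32851 RefSeq windows, 17.2% held the first E-box, 13.0% the second E-box, 22.8% the TATAA letters and 0.703% the E2F-type letters. The motifs were chosen after these sequences had been seen, and a match describes letters, not binding.

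Cdkn1a, which encodes p21, a Cip/Kip inhibitor and a p53 target, was the member that differed most between Tuft or EEC cells and MucinDuctal cells. In MucinDuctal cells it was at 16.5 and 29.6 CPM in 2-week mouse 1 and 2 and at 6.74 and 9.90 CPM in 4-week mouse 1 and 2. Tuft cells of the same mice held 543, 542, 552 and 504 CPM. EEC cells held 2444, 1417, 1786 and 1385 CPM. The 3 types did not overlap in any mouse, and the tuft values lay much closer together over mice (535 ± 21.6 CPM, SD, n = 4) than those of EEC cells (1758 ± 492 CPM).
The within-mouse log2 ratio of Cdkn1a was 5.31 ± 0.92 (SD, n = 4 mice) for Tuft against MucinDuctal cells and 6.99 ± 1.03 for EEC against MucinDuctal cells.

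**Figure D1:**
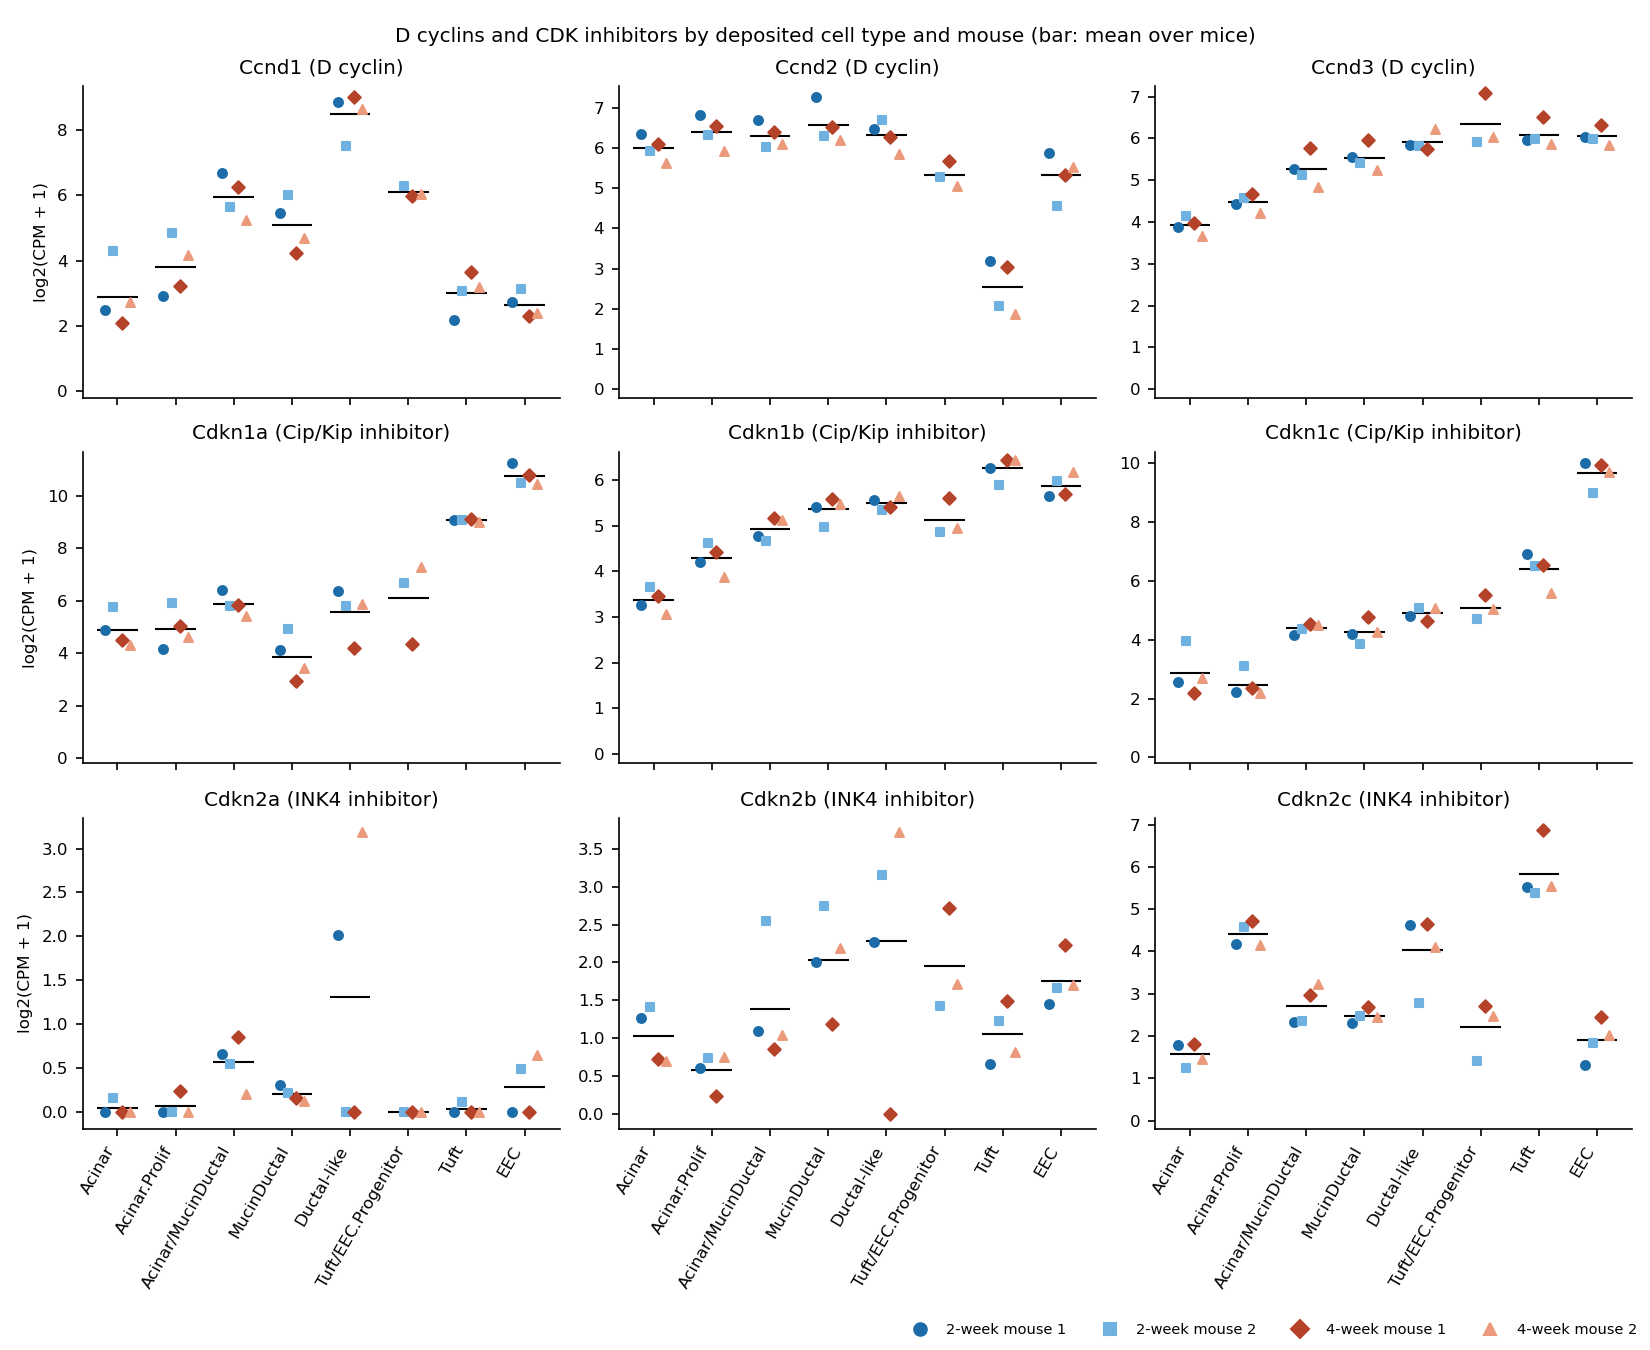
Level of each member as log2(CPM + 1) on the vertical axis in the 8 deposited cell types, with 1 symbol per mouse with at least 20 cells of the type and a bar at the mean over mice. Cdkn1a and Cdkn1c stand highest in EEC cells, Cdkn2c in Tuft cells and Ccnd1 in Ductal-like cells, and Ccnd2 is lowest in Tuft cells.

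Because the authors' types were made from these same counts, no p-value was computed between types. A member was instead called where its within-mouse CPM ratio was at least 2-fold the same way in 4 of 4 mice, among genes with a mean of at least 1 CPM over both types. Between Tuft and MucinDuctal cells 3 of the 8 members tested were higher by that rule (Cdkn1a, Cdkn1c and Cdkn2c) and 1 was lower (Ccnd2), and of all 12630 genes tested 12.5% were higher and 8.59% lower. Between EEC and MucinDuctal cells 2 of 8 were higher (Cdkn1a and Cdkn1c) and 1 was lower (Ccnd1), against 18.6% and 7.10% of 13316 genes. Between EEC and Tuft cells 3 of 8 were higher (Ccnd2, Cdkn1a and Cdkn1c) and 1 was lower (Cdkn2c), against 15.4% and 9.16% of 13301 genes. The median log2 ratio over the tested members was 0.74, 0.12 and 0.51 in these 3 comparisons, beside 0.20, 0.43 and 0.27 over all genes tested. Cdkn2a was not tested in any of the 3, since it did not reach 1 CPM. TMM scaling, which balances the bulk of the genes, moved the share of higher genes among those called from 59.3% to 48.4%, from 72.4% to 53.2% and from 62.7% to 54.0%. Under it and under mean UMIs per cell, the members called were 3 higher and 1 lower, 2 higher and 2 lower, and 2 higher and 1 lower: Ccnd2 was then also called lower in EEC than in MucinDuctal cells, and Cdkn1a was no longer called between EEC and Tuft cells.

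**Figure D2:**
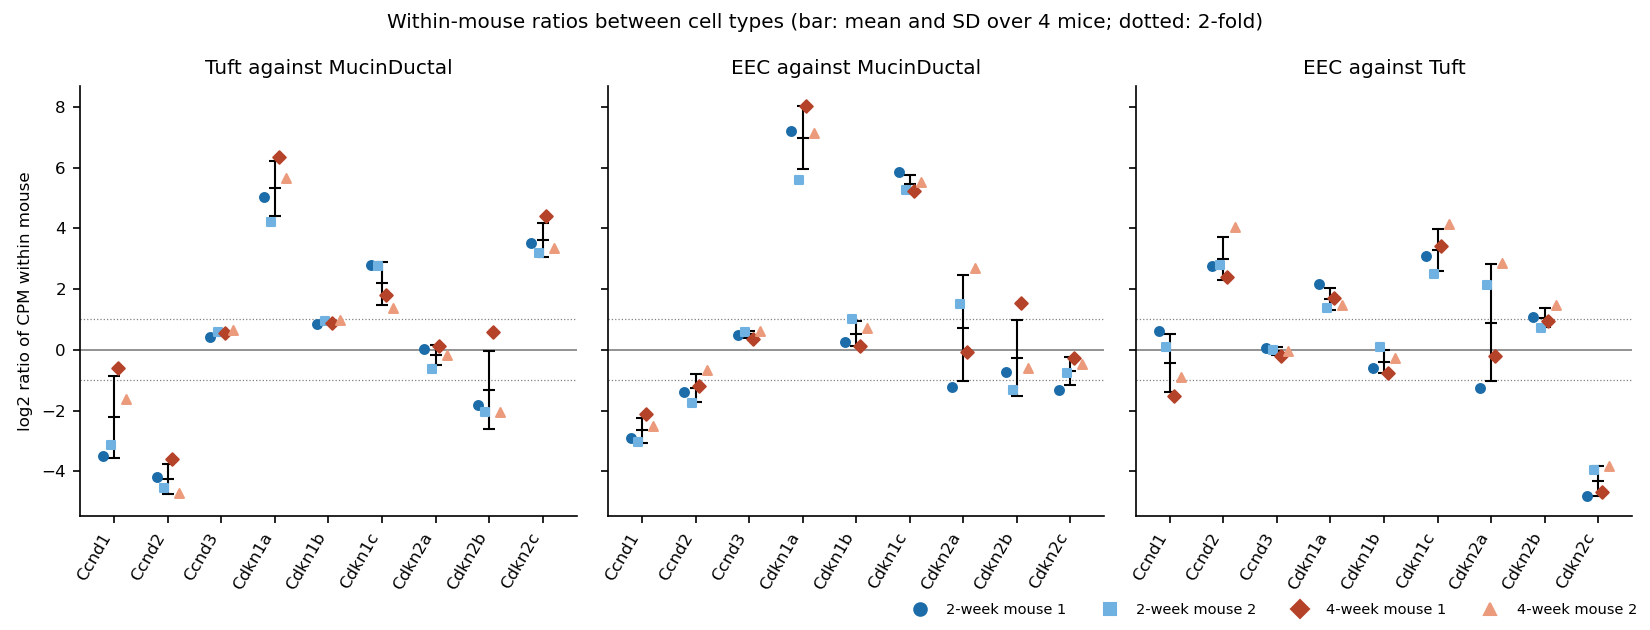
Within-mouse log2 ratio of CPM for each member between pairs of cell types, with 1 symbol per mouse, a bar at the mean with its SD over 4 mice, and dotted lines at 2-fold. Cdkn1a lies above the upper line in both comparisons with MucinDuctal cells, while Cdkn2c lies above it in Tuft cells and below the lower line in EEC against Tuft cells.

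Among the D cyclins, Ccnd2 was nearly absent from Tuft cells. It was at 153, 76.9, 89.98 and 72.3 CPM in MucinDuctal cells of 2-week mouse 1 and 2 and 4-week mouse 1 and 2, in that order. Tuft cells of the same mice held 8.19, 3.21, 7.22 and 2.68 CPM, with a log2 ratio of -4.26 ± 0.49 (SD, n = 4). EEC cells held 58.0, 22.5, 38.9 and 45.4 CPM. Every Tuft value lay under every EEC and MucinDuctal value, and EEC cells were 8.02-fold higher than Tuft cells (SD 0.71 on the log2 scale). EEC cells were lower than MucinDuctal cells in 4 of 4 mice, by 2-fold or more in 3 of them, with a log2 ratio of -1.26 ± 0.46. Acinar cells carried Ccnd2 at 80.5, 59.4, 67.1 and 48.6 CPM, and the values of Acinar, Acinar.Prolif, Acinar/MucinDuctal, Ductal-like and MucinDuctal cells overlapped between neighbours in the order of mean levels.

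Ccnd1, the D cyclin commonly induced by growth factor and Wnt signals, was low in both Tuft and EEC cells. MucinDuctal cells held 43.2, 64.0, 17.7 and 24.9 CPM, Tuft cells 3.51, 7.32, 11.4 and 8.05 CPM and EEC cells 5.67, 7.70, 3.95 and 4.199 CPM. B cells without a deposited type, which carried no EYFP UMI and should lack Ccnd1, held 23.5, 6.08, 10.0 and 5.79 CPM, from 13, 6, 12 and 3 UMIs in 3, 5, 2 and 3 positive cells. In 2-week mouse 1 and 4-week mouse 1 a single B cell with 10 or more UMIs gave most of that level. In the other 2 mice Tuft cells held 7.32 and 8.05 CPM and EEC cells 7.70 and 4.199 CPM. B cells were of lower depth per cell, and the part of free RNA, released by other cells, in these levels was not tested. The log2 ratio was -2.64 ± 0.41 for EEC against MucinDuctal cells. For Tuft against MucinDuctal cells it was -2.21 ± 1.35, lower in 4 of 4 mice but by less than 2-fold in 4-week mouse 1. After every cell had been thinned to 1500 UMIs, 5.68%, 8.07%, 2.25% and 3.08% of MucinDuctal cells held a Ccnd1 UMI, against 0.47% to 1.21% of Tuft cells, 0.66% to 1.01% of EEC cells and 0.52% to 1.34% of B cells. Unthinned, a mean of 33.9% of MucinDuctal, 6.93% of Tuft and 6.14% of EEC cells were positive. Median depths per cell were 15110 to 21810 UMIs in MucinDuctal, 14809 to 20481 in Tuft, 11136 to 14682 in EEC and 2907 to 3775 in B cells.

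Ccnd3, the third D cyclin, did not follow the other two. It was at 61.5, 62.4, 90.5 and 57.3 CPM in Tuft cells, at 64.9, 62.8, 78.6 and 56.3 CPM in EEC cells and at 46.0, 41.5, 61.0 and 36.9 CPM in MucinDuctal cells. Tuft and EEC cells were each higher than MucinDuctal cells in 4 of 4 mice, by 0.56 ± 0.09 and 0.52 ± 0.11 on the log2 scale, under the 2-fold limit. The excess over the median of all genes was small in EEC cells, where that median was 0.43. The summed level of the 3 D cyclins was 68.1 to 109 CPM in Tuft cells and 93.0 to 129 CPM in EEC cells, against 134 to 242 CPM in MucinDuctal cells.

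In the Cip/Kip group, nearly every tuft cell carried Cdkn1a RNA. Of Tuft cells, 100.0% (83 cells, exact 95% binomial interval 95.7% to 100.0%), 97.9%, 97.2% and 96.6% held at least 1 UMI, and the median cell had 7 to 10. Of MucinDuctal cells, 12.4%, 21.1%, 6.97% and 6.25% did. Of EEC cells, 83.3%, 74.7%, 72.2% and 71.4% did, a smaller share than of Tuft cells although the EEC level in CPM was higher by 1.68 ± 0.35 on the log2 scale. The 90th percentile of EEC cells was 51.1 to 93.7 UMIs against 15.0 to 20.0 in Tuft cells, so Cdkn1a was spread unevenly over EEC cells and evenly over Tuft cells. Thinned to 1500 UMIs, 49.6% to 53.3% of Tuft cells, 51.3% to 65.9% of EEC cells, 0.85% to 2.91% of MucinDuctal cells and 0.44% to 3.05% of B cells held a Cdkn1a UMI. As a range over mice, the MucinDuctal share lay within that of B cells, which were of lower depth per cell. The part of free RNA in either share was not tested. These intervals cover counting error only.

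Cdkn1c, which encodes p57, an imprinted Cip/Kip inhibitor, was mainly an EEC gene here. It was at 1026, 514, 977 and 829 CPM in EEC cells, at 121, 91.1, 91.7 and 46.8 CPM in Tuft cells and at 17.5, 13.4, 26.2 and 18.1 CPM in MucinDuctal cells. The 3 types did not overlap, and the log2 ratio was 5.47 ± 0.30 for EEC and 2.18 ± 0.71 for Tuft against MucinDuctal cells. Of EEC cells 76.9% to 87.1% held a UMI, of Tuft cells 30.0% to 52.3%. B cells held 0 to 5.07 CPM. In cells without any UMI of the proliferation list, the Tuft against MucinDuctal log2 ratio of Cdkn1c was 0.96 over the 3 mice with enough such cells, and Cdkn1c was no longer called.

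Cdkn1b, which encodes p27, was higher in Tuft than in MucinDuctal cells in 4 of 4 mice, by just under 2-fold. Its levels were 75.5, 58.3, 86.0 and 86.3 CPM in Tuft cells, 49.6, 61.6, 51.03 and 70.8 CPM in EEC cells and 41.7, 30.4, 46.8 and 43.4 CPM in MucinDuctal cells. The log2 ratio was 0.92 ± 0.06 for Tuft and 0.53 ± 0.41 for EEC against MucinDuctal cells, and the Tuft and EEC ranges overlapped. Much of p27 control is known to act on the protein, which was not measured.

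In the INK4 group, Cdkn2c, which encodes p18, separated Tuft from EEC cells. Tuft cells held 45.1, 41.0, 117 and 45.8 CPM, EEC cells 1.48, 2.57, 4.47 and 3.08 CPM and MucinDuctal cells 3.94, 4.53, 5.46 and 4.46 CPM. Every Tuft value was above every other value of the 8 types, and 4-week mouse 1 was the highest. The log2 ratio was 3.61 ± 0.55 for Tuft against MucinDuctal cells and -4.32 ± 0.50 for EEC against Tuft cells, while EEC and MucinDuctal cells differed by -0.70 ± 0.46. Thinned to 1500 UMIs, 5.45% to 16.2% of Tuft cells and 0.50% to 0.78% of MucinDuctal cells held a UMI.

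Cdkn2a, whose locus gives the p16 and p19Arf transcripts that 3′ counts cannot tell apart, was nearly undetected. It gave 37 UMIs in 27 of 13362 typed cells, and 5 of these cells were among the 139 Ductal-like cells, all from 2 of the 4 mice. One Tuft cell and 4 EEC cells held a UMI. No EEC-Progenitor cell (0 of 391, which allows a share of up to 0.767%), no Tuft-2 cell (0 of 457, up to 0.656%), no Tuft-3 cell (0 of 494, up to 0.607%) and no Epsilon cell (0 of 377, up to 0.796%) did. These limits are 3 counts over the cells of all 4 mice, cover counting error only and bound the share of cells with a captured UMI, not the share that expresses the gene. Cdkn2b, which encodes p15, was low in all types, with 1.13 ± 0.56 CPM in Tuft, 2.46 ± 0.85 in EEC, 3.39 ± 1.83 in MucinDuctal and 5.99 ± 5.27 CPM in Ductal-like cells (SD, n = 4), and neighbouring types in that order overlapped.

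Within the tuft lineage, the subtypes Tuft-2 and Tuft-3 differed in their levels of Cdkn1c and Cdkn2c. Cdkn1c was at 253, 99.2, 198 and 87.7 CPM in Tuft-2 cells and at 7.65, 12.3, 15.5 and 12.0 CPM in Tuft-3 cells, a log2 difference of -3.60 ± 0.94 for Tuft-3 against Tuft-2. Cdkn2c went the other way, with 29.1, 23.8, 42.4 and 25.2 CPM in Tuft-2 and 68.8, 104, 187 and 67.0 CPM in Tuft-3 cells, a difference of 1.72 ± 0.47. The subtypes did not overlap for either gene, and these were the only members called between them, where 1.01% of 11997 genes were higher and 0.817% lower. Cdkn1a was at 556 to 782 CPM in Tuft-2 and 496 to 574 CPM in Tuft-3 cells and was not called. Tuft-3 cells were not above MucinDuctal cells in Cdkn1c (-0.61 ± 0.40), whereas Tuft-2 cells were, by 2.99 ± 0.65. Summed enteroendocrine markers in Tuft-2 cells were 3365, 217, 4007 and 183 CPM in the same order of mice. The 2 mice with the most marker RNA were also the 2 with the most Cdkn1c, and its part in that level was not tested.

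Tuft-1 cells reached 20 cells only in 2-week mouse 2 and 4-week mouse 2, with 166 and 26 cells. In these mice their Cdkn1a was 434 and 361 CPM, their Cdkn1c 177 and 120 CPM and their Cdkn2c 2.96 and 10.2 CPM, the last below both other tuft subtypes. Against MucinDuctal cells, Tuft-2 cells were higher in Cdkn1a, Cdkn1c and Cdkn2c and lower in Ccnd1 and Ccnd2, where 11.8% of genes were higher and 8.23% lower. Tuft-3 cells were higher in Cdkn1a, Cdkn1b and Cdkn2c and lower in Ccnd1, Ccnd2 and Cdkn2b, where 13.5% were higher and 9.52% lower. Tuft-3 cells held 0, 5, 0 and 2 Cdkn2b UMIs in 2-week mouse 1 and 2 and 4-week mouse 1 and 2. In 2-week mouse 1 and 4-week mouse 1 the size of the Cdkn2b ratio thus rests on the counts added to each sum. The lower call of Cdkn2b is therefore not secure. The Cdkn1b ratio of Tuft-3 cells was 1.15 ± 0.09.

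**Figure D3:**
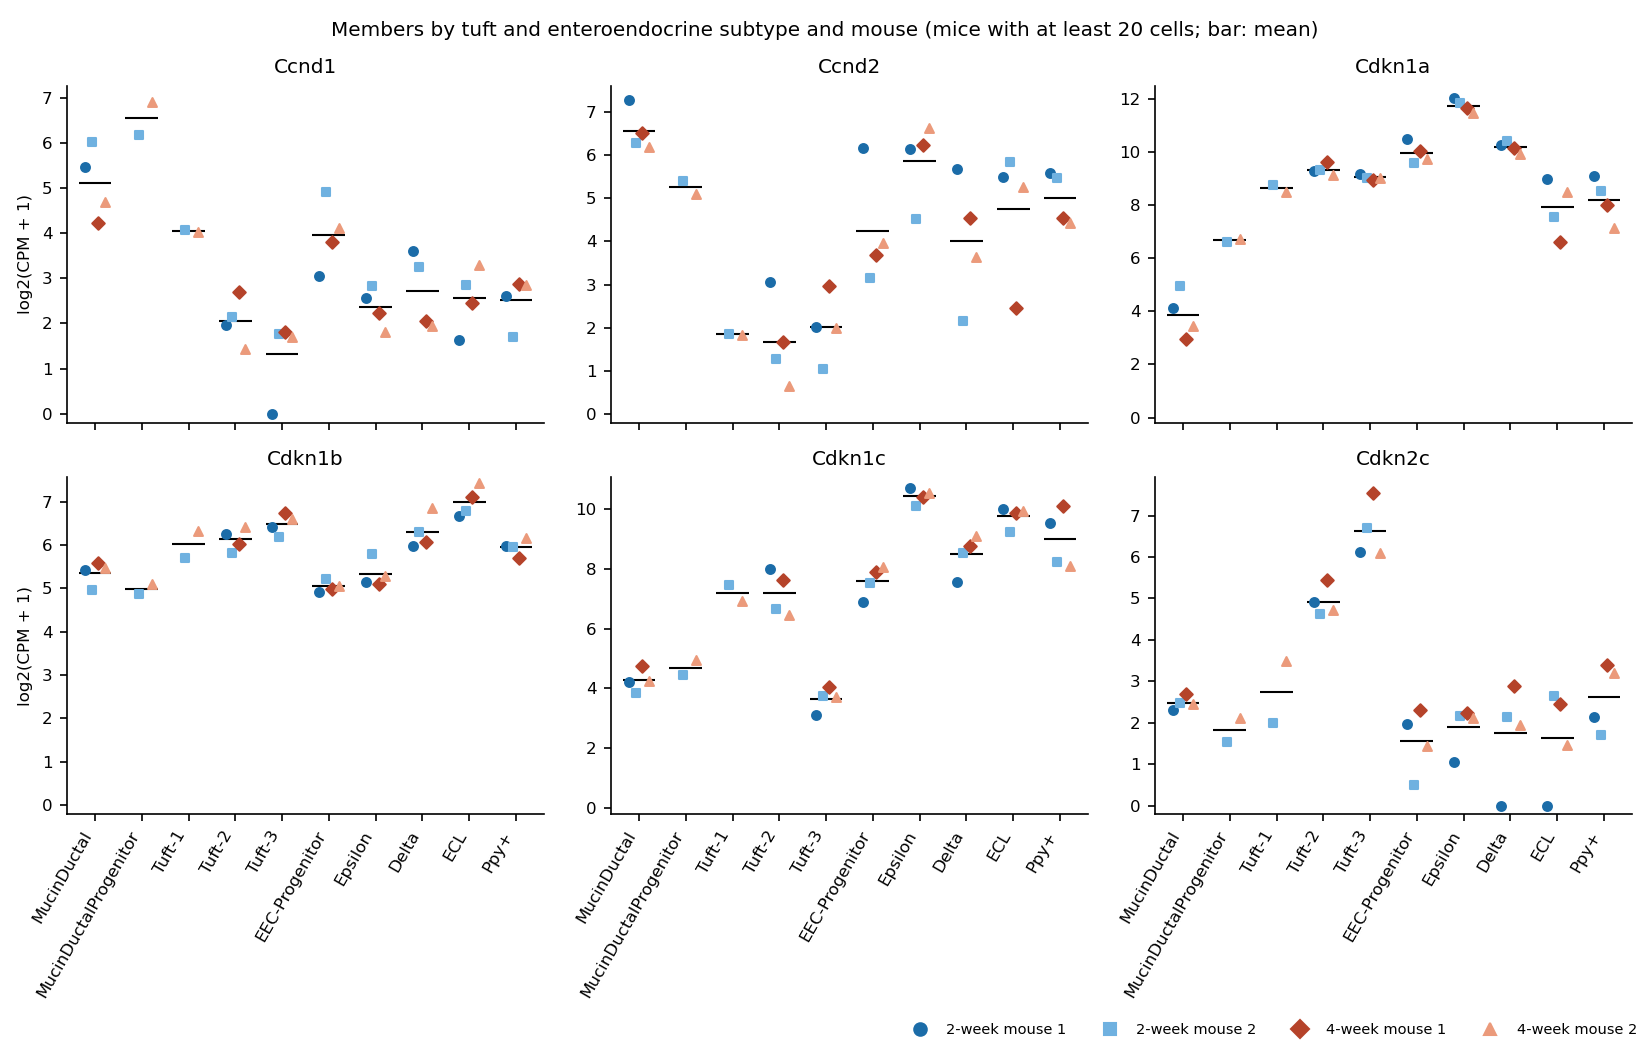
Level of members as log2(CPM + 1) in MucinDuctal cells and in tuft and enteroendocrine subtypes, with 1 symbol per mouse with at least 20 cells and a bar at the mean. Cdkn1a is highest in Epsilon cells and present in all tuft subtypes, Cdkn1c falls and Cdkn2c rises from Tuft-2 to Tuft-3, and Cdkn1b is highest in ECL cells.

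Within the enteroendocrine lineage, Epsilon cells, which carry the ghrelin gene Ghrl, had the most Cdkn1a and Cdkn1c. Their Cdkn1a was 4191, 3706, 3201 and 2835 CPM, and 98.8% to 100.0% of the 377 cells held a UMI, with a median of 30.5 to 68.0 UMIs per cell. Their Cdkn1c was 1656, 1107, 1368 and 1493 CPM. Against MucinDuctal cells Cdkn1a was 256-fold higher (SD 0.79 on the log2 scale) and Cdkn1c higher by 6.25 ± 0.37 on the log2 scale, where 16.2% of genes were called higher.

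EEC-Progenitor cells, which carry Neurog3, the transcription factor that commits cells to the endocrine fate, already held 1424, 778, 1042 and 843 CPM of Cdkn1a. The cells were split, since 51.1%, 62.0%, 52.9% and 56.8% had a UMI and the median cell had 1 or 2, but the 90th percentile was 31 to 52.2 UMIs and 26.7% to 31.9% had 10 or more. Epsilon cells exceeded them by 1.79 ± 0.32 in Cdkn1a and 2.84 ± 0.63 in Cdkn1c on the log2 scale, where 4.02% of 13140 genes were called higher and 3.04% lower. EEC-Progenitor cells were below MucinDuctal cells in Ccnd2 (-2.37 ± 0.94), where 7.15% of genes were called lower and 15.7% higher, but 2-week mouse 1 stood apart with 70.5 CPM against 7.85 to 14.5 CPM in the other 3 mice. Their Ccnd1 was 7.34, 28.9, 12.9 and 16.2 CPM, and no lower call was made.

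ECL and Ppy+ cells held less Cdkn1a than EEC-Progenitor cells. ECL cells also lay below Tuft cells of the same mouse in every mouse, and Ppy+ cells in every mouse but 2-week mouse 1. ECL cells, marked by Tac1, held 510, 188, 95.9 and 362 CPM and Ppy+ cells, marked by pancreatic polypeptide, 552, 371, 259 and 140 CPM, both called lower than EEC-Progenitor cells (-2.04 ± 0.99 and -1.75 ± 0.68), where 2.64% and 5.67% of genes were called lower and 8.52% and 5.88% higher. Delta cells, marked by somatostatin, held 1240, 1348, 1135 and 975 CPM, overlapping EEC-Progenitor cells. ECL cells instead carried the most Cdkn1b, at 100.0, 108, 136 and 172 CPM against 29.4 to 36.0 CPM in EEC-Progenitor cells, a ratio of 1.97 ± 0.37, where 8.52% of genes were called higher. Their Cdkn1c was 1035, 606, 937 and 985 CPM, above EEC-Progenitor cells (119, 184, 240 and 266 CPM) by 2.17 ± 0.64. Delta cells were also higher in Cdkn1b, by 1.28 ± 0.37, where 7.38% of genes were called higher. Each of the 4 hormone subtypes was higher than MucinDuctal cells in Cdkn1a and Cdkn1c and lower in Ccnd1 by the same rule. Called lower were 7.57% of genes in Epsilon, 3.65% in Delta, 4.32% in ECL and 5.18% in Ppy+ cells, and called higher 16.2%, 18.5%, 19.6% and 13.3%.

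**Figure D4:**
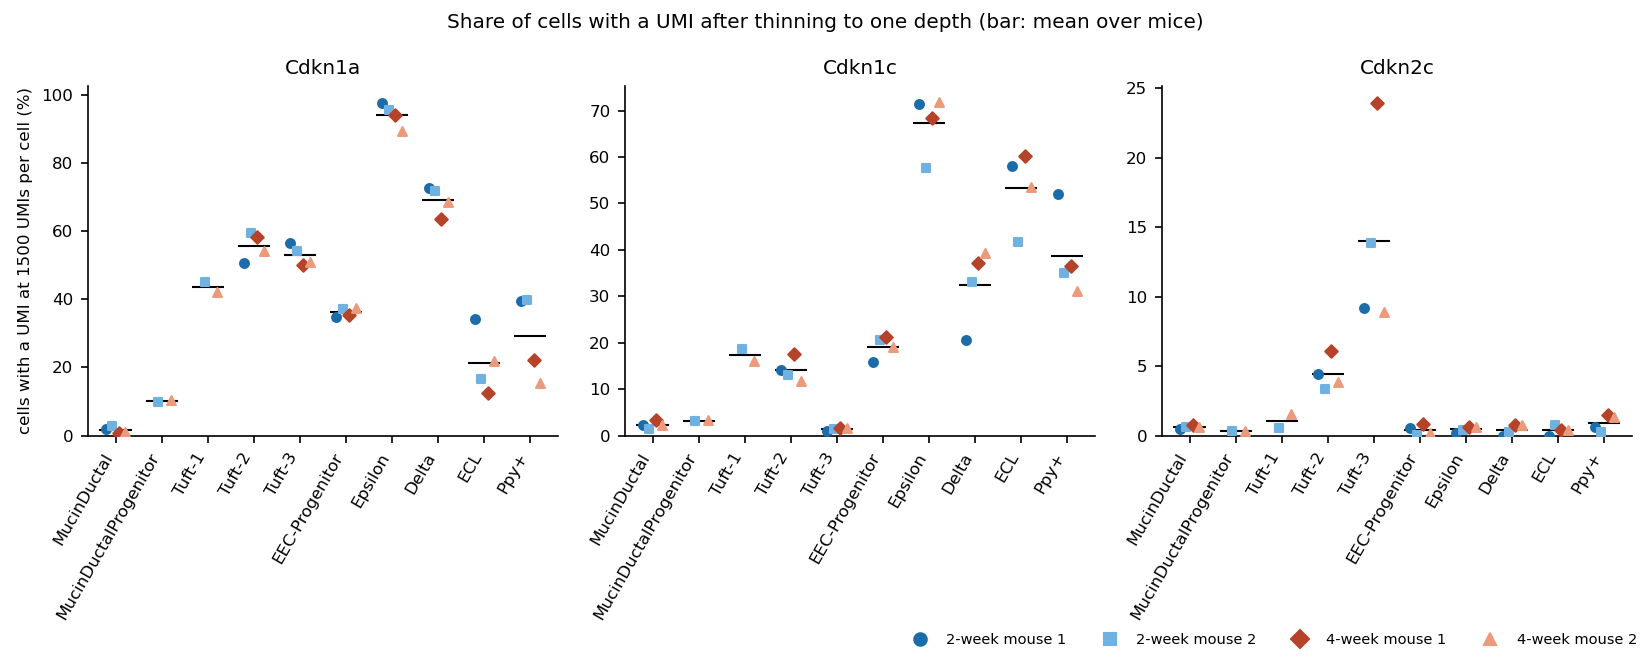
Percentage of cells with at least 1 UMI of Cdkn1a, Cdkn1c or Cdkn2c after thinning every cell to 1500 UMIs, for MucinDuctal cells and the tuft and enteroendocrine subtypes, with 1 symbol per mouse with at least 20 cells and a bar at the mean over mice. Cdkn1a reaches 89.3% to 97.7% of Epsilon cells, Cdkn2c is highest in Tuft-3 cells at 8.90% to 24.0%, and Cdkn1c in Tuft-3 cells lies beside MucinDuctal cells.

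Tuft/EEC.Progenitor cells, over 3 mice, held more Ccnd1 than Tuft or EEC cells of the same mice. Ccnd1 was 76.2, 61.6 and 64.2 CPM in 2-week mouse 2, 4-week mouse 1 and 4-week mouse 2, with a log2 ratio to MucinDuctal cells of 1.16 ± 0.81 (SD, n = 3). Ccnd2 was 37.7, 50.4 and 32.1 CPM (-0.98 ± 0.17), overlapping EEC cells and above Tuft cells. Cdkn1a was 101, 19.6 and 154 CPM (2.46 ± 1.31) and Cdkn1c differed by 0.87 ± 0.05. These Cdkn1a values lay between those of MucinDuctal and Tuft cells in each of the 3 mice. No call was made over 3 mice.

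Summed proliferation genes in Tuft and EEC cells overlapped the level in MucinDuctal cells. The summed level of 28 proliferation genes, among them Mki67 and Top2a, was 127 to 148 CPM in Tuft cells, 125 to 170 CPM in EEC cells and 108 to 356 CPM in MucinDuctal cells, and these ranges overlapped. Acinar.Prolif cells held 2035 to 2593 CPM. Of the list, 0 of 23 genes tested were higher and 1 lower in Tuft cells, and 0 of 25 were higher and 3 lower in EEC cells, against MucinDuctal cells, with median log2 ratios of -0.47 and -0.41 beside 0.20 and 0.43 over all genes; 12.5% and 18.6% of all genes were called higher and 8.59% and 7.10% lower. In Tuft-3 cells 4 of 23 were lower and 0 higher, with a median of -1.04, where 9.52% of all genes were called lower.

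**Figure D5:**
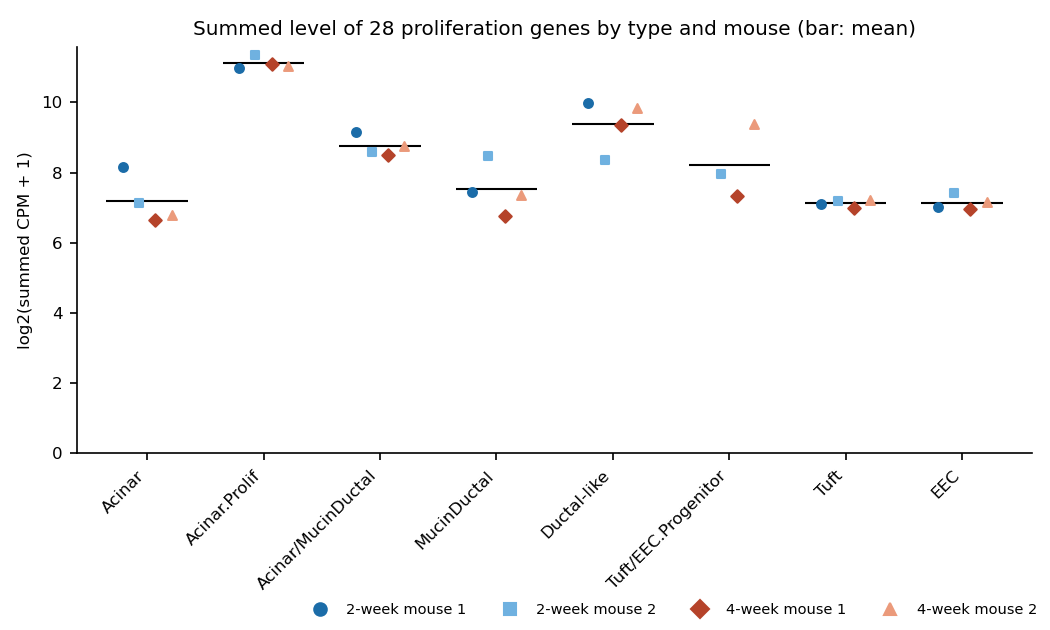
Summed level of 28 proliferation genes as log2(summed CPM + 1) on the vertical axis in the 8 cell types, with 1 symbol per mouse with at least 20 cells of the type and a bar at the mean. Acinar.Prolif cells stand far above the rest, and Tuft, EEC and MucinDuctal cells overlap.

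The other G1/S genes give the setting of the members. Of 27 partners, 22 were tested in Tuft against MucinDuctal cells, 4 higher and 1 lower. Rb1, the retinoblastoma gene, was higher by 2.28 ± 0.17, Cdkn2d, the remaining INK4 inhibitor, by 2.14 ± 0.17 and the kinase Cdk2 by 1.51 ± 0.20. Cdk6, a partner kinase of the D cyclins, was lower by -2.07 ± 0.74. In EEC against MucinDuctal cells 25 were tested, again 4 higher and 1 lower, with Cdkn2d at 2.34 ± 0.36, Rb1 at 1.62 ± 0.15, the kinase Cdk4 at 1.46 ± 0.18 and Cdk6 at -2.73 ± 0.36. Cdk6 was at a mean of 61.8 CPM in MucinDuctal, 14.6 in Tuft and 8.85 CPM in EEC cells. The median over tested partners was 0.22 and 0.41, near that of all genes, and the counts of 4 of 22 and 4 of 25 lay near the background shares given above.

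The shares of all genes called higher and lower, beside which the counts of the following lists stand, were 12.5% and 8.59% in Tuft and 18.6% and 7.10% in EEC cells. Among 20 p53 targets, which include genes that share regulation with Cdkn1a, 1 of 19 tested was higher and 1 lower in Tuft cells, and 6 of 19 were higher and 1 lower in EEC cells, against MucinDuctal cells. Plk2 was higher in Tuft cells by 3.82 ± 0.41 and differed in EEC cells by -0.04 ± 0.58. Bbc3, which encodes the death protein Puma, and Sesn2, a stress-response gene, were higher in EEC cells by 2.12 ± 0.40 and 2.09 ± 0.25. The median over the list was 0.11 and 0.40. Of 13 tested genes of Wnt, Myc and mitogen response, 1 was higher and 5 lower in Tuft cells, and 2 higher and 3 lower in EEC cells. Etv5, a target of growth factor signalling, was lower in both, by -3.81 ± 0.63 and -3.19 ± 1.09, and Ccn2, a target of Yap, by -4.76 ± 2.16 and -5.22 ± 0.40. Mycl was higher in EEC cells by 3.01 ± 0.39 and Myc lower in Tuft cells by -1.80 ± 0.59.

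Of the quiescence and endocrine exit factors, 2 were higher and 2 lower of 13 tested in Tuft cells and 6 higher and 2 lower of 14 tested in EEC cells, beside the same 12.5% and 8.59% and 18.6% and 7.10% of all genes. Hes1, the Notch target that represses endocrine fate and Cip/Kip genes, was at a mean of 161 CPM in MucinDuctal, 7.26 in Tuft and 7.02 CPM in EEC cells, with log2 ratios of -4.49 ± 0.43 and -4.52 ± 0.25. Klf4 was higher in Tuft cells by 2.78 ± 0.42. Neurog3, Neurod1 and Insm1 were higher in EEC cells by 9.02 ± 1.94, 8.16 ± 0.67 and 7.95 ± 0.69, and such genes belong to the identity of the type. Immediate early genes, which rise on tissue dissociation, were called higher in 3 and lower in 1 of 13 in EEC cells and in 0 and 1 of 13 in Tuft cells, both against MucinDuctal cells. In EEC against Tuft cells 5 of 13 were called higher and 1 lower, beside 15.4% and 9.16% of all genes, with a median log2 ratio of 1.03 against 0.27 over all genes, and their part in the Cdkn1a level was not tested.

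Between acinar and metaplastic cells, the share of members called was below or near that of all genes in CPM, and few or none were called with TMM scaling. Against Acinar cells, MucinDuctal cells were called higher in Ccnd1 (2.40 ± 0.61), Ccnd3 (1.69 ± 0.30) and Cdkn1b (2.11 ± 0.51), 3 of 8 members, where 60.6% of all genes were called higher and 1.78% lower and the median gene differed by 1.63. Acinar cells give 461058 to 542599 CPM to 20 acinar markers, and MucinDuctal cells 13734 to 28922 CPM. With TMM scaling, which put the median gene at 0.04, 0 members were higher, 1 (Cdkn1a) was lower, and the ratios of Ccnd1, Ccnd3 and Cdkn1b were 0.81, 0.11 and 0.52. Cdkn1a was below the Acinar level in 4 of 4 mice even in CPM (-1.06 ± 0.41), with 28.8, 53.4, 21.5 and 18.7 CPM in Acinar cells.

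Acinar/MucinDuctal cells varied widely in depth over mice (medians of 2659 to 19556 UMIs). They were called higher than Acinar cells in the same 3 members, where 34.0% of genes were higher, 0.134% lower and the median 1.30. None was called with TMM scaling. Their Ccnd1 was 102, 48.6, 76.0 and 37.1 CPM, against 4.63, 18.4, 3.25 and 5.58 CPM in Acinar cells. Acinar.Prolif cells were called higher than Acinar cells in 1 of 7 members, Cdkn2c (3.34 ± 0.51), where 6.71% of genes were called. Cdkn2c was at 17.0, 22.8, 25.2 and 16.8 CPM there and at 1.38 to 2.53 CPM in Acinar cells, without overlap. In the same comparison 27 of 28 proliferation genes and 12 of 27 G1/S partners were called higher, with medians of 4.64 and 1.19. Cdkn2c was thus high in the type with the highest proliferation sum and also in Tuft cells, where that sum was low. Ductal-like cells held 23.6, 5.84, 24.0 and 16.3 CPM of Cdkn2c, which overlapped Acinar.Prolif cells.

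Ductal-like cells, 22 to 56 per mouse, had the most Ccnd1, at 462, 180, 513 and 401 CPM. This was above MucinDuctal cells by 3.45 ± 1.43, the only call among 9 members, where 8.82% of genes were called higher. All 3 pericyte markers were detected in these cells, summing to 341, 234, 238 and 450 CPM against 3.64 to 11.9 CPM in MucinDuctal cells, and their part in the Ccnd1 level was not tested.

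Between 2 and 4 weeks of caerulein, no member was called in any of the 7 types tested by edgeR's quasi-likelihood test with Benjamini-Hochberg adjustment. With 2 mice per time point, it called 0 of 12343 genes in Acinar, 1 of 10046 (0.00995%) in Acinar.Prolif, and 0 in each of the other 5 types. Cdkn2a passed the low-count filter in none of the 7 types and Cdkn2b only in Acinar and MucinDuctal cells, so elsewhere they were not tested. An unadjusted p under 0.05 was given to 2.79% of genes in Acinar, 2.45% in Acinar.Prolif, 3.42% in Acinar/MucinDuctal, 5.39% in MucinDuctal, 6.74% in Tuft, 4.03% in EEC and 5.27% in Ductal-like cells. DESeq2 called 15 genes in Acinar (0.122%), 2 in Acinar.Prolif (0.0199%), 23 in Acinar/MucinDuctal (0.198%), 40 in MucinDuctal (0.297%), 31 in Tuft (0.283%), 13 in EEC (0.110%) and 0 in Ductal-like cells.

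In MucinDuctal cells the largest member differences between the time points were those of Ccnd1 and Cdkn1a, and edgeR called neither with all 4 mice. Ccnd1 was 43.2 and 64.0 CPM at 2 weeks and 17.7 and 24.9 CPM at 4 weeks, without overlap, a log2 difference of -1.21 (SE 0.255, edgeR adjusted p = 0.824; DESeq2 adjusted p = 0.0453). Cdkn1a was 16.5 and 29.6 CPM at 2 weeks and 6.74 and 9.90 CPM at 4 weeks (-1.35, SE 0.339, edgeR adjusted p = 0.824; DESeq2 adjusted p = 0.156). B cells held 1.81 and 19.3 CPM of Cdkn1a at 2 weeks and 13.4 and 17.4 CPM at 4 weeks. MucinDuctal cells were thus above B cells in both 2-week mice and below them in both 4-week mice. The B cells of 2-week mouse 1 held 552075 UMIs of all genes, so the 1.81 CPM rests on very few Cdkn1a UMIs. B cells were chosen as cells that should lack Ccnd1, so their Cdkn1a level is no known zero. B cells were of lower depth per cell, and the part of free RNA in this difference was not tested. Over all edgeR and DESeq2 settings the adjusted p of these 2 ranged from 0.0443 to 1.00 and from 0.0398 to 1.00. Without 2-week mouse 1 they were 0.0443 and 0.0398. MucinDuctal cells came from 2 deposited clusters, and the 1138 cluster 1 cells of 2-week mouse 2 outnumbered its 250 cluster 2 cells, whereas 4-week mouse 1 had 228 and 733. Within cluster 1, Ccnd1 was 66.1 and 71.0 CPM at 2 weeks and 28.7 and 31.5 CPM at 4 weeks. Within cluster 2 it was 35.1 and 34.2 CPM and then 15.3 and 20.0 CPM, so the time points did not overlap in either cluster. Cdkn1a did not overlap in either cluster, with 49.2 and 30.0 against 15.9 and 17.2 CPM in cluster 1 and 4.86 and 28.1 against 4.74 and 4.54 CPM in cluster 2, where 2-week mouse 2 alone was high. Proliferation genes in MucinDuctal cells had a median change of -1.51, with 0 of 27 called, and moved with both members; their part was not tested.

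In Tuft cells Cdkn2c was 45.1 and 41.0 CPM at 2 weeks and 117 and 45.8 CPM at 4 weeks, without overlap but with most of the difference from 4-week mouse 1 (log2 0.91, SE 0.561, edgeR adjusted p = 0.907; 0.0542 to 1.00 over the settings tried). Cdkn1c was 121 and 91.1 CPM at 2 weeks and 91.7 and 46.8 CPM at 4 weeks (-0.62, SE 0.374, edgeR adjusted p = 0.893; 0.0225 to 1.00), and edgeR called it only without the low-count filter. The tuft subtypes were mixed differently at the 2 time points: Tuft-3 cells, which held more Cdkn2c and less Cdkn1c than Tuft-2 cells, were 35 of 83 and 181 of 665 Tuft cells at 2 weeks and 113 of 212 and 165 of 320 at 4 weeks. Within subtypes the time points overlapped for both genes, and the part of the subtype mix in the differences over time was not tested. Cdkn2c was 68.8 and 104 against 187 and 67.0 CPM in Tuft-3 cells and 29.1 and 23.8 against 42.4 and 25.2 CPM in Tuft-2 cells. Cdkn1c was 7.65 and 12.3 against 15.5 and 12.0 CPM in Tuft-3 cells and 253 and 99.2 against 198 and 87.7 CPM in Tuft-2 cells. Cdkn1a in Tuft cells differed by -0.04 (edgeR adjusted p = 1.00) and in EEC cells by -0.21 (edgeR adjusted p = 0.989). Cdkn1b in Tuft cells, at 75.5 and 58.3 CPM at 2 weeks and 86.0 and 86.3 CPM at 4 weeks, had a log2 difference of 0.39 (SE 0.159, edgeR adjusted p = 0.709). In EEC cells without 2-week mouse 1, which left a lone mouse at 2 weeks, edgeR called Ccnd2 (1.05) and Cdkn1c (0.97). Without 2-week mouse 2 both differences were below 0 (-0.44 and -0.15). The enteroendocrine mix also differed: EEC-Progenitor cells, lower in Cdkn1c than Epsilon cells, numbered 45 and 166 at 2 weeks and 85 and 95 at 4 weeks. EEC cells numbered 264 and 359, then 295 and 290. The part of this mix in both differences was not tested.

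The genes whose level followed each member most closely over 31 pairs of type and mouse are given as a description, since all 31 share cells' libraries and depth. Pearson's r of log2(CPM + 1), centred within mouse, was computed over 10655 genes. Cdkn1a was nearest to Cpe (0.95), Sez6l2 (0.94) and 1500009L16Rik (0.94), and Cdkn1c to Mid1ip1 (0.98), Wdr6 (0.97) and Slc36a1 (0.97). Cdkn2c was nearest to Higd1a (0.94), Fam83d (0.91) and Smtn (0.89), Cdkn1b to Nptn, Pdpk1 and Ei24 (each 0.97) and Ccnd3 to Xrn2, Capza2 and Knop1 (each 0.98). Ccnd1 was nearest to Osmr (0.94), Eepd1 (0.93) and Scara3 (0.93), and Ccnd2 to Mettl1 (0.95), Nucb2 (0.92) and Prdx4 (0.92). Cpe is an enteroendocrine marker that processes prohormones. Between members, r was 0.89 for Ccnd3 with Cdkn1b, 0.87 for Cdkn1a with Cdkn1c and -0.64 for Ccnd2 with Cdkn1a. Cdkn2a and Cdkn2b stayed under 10 CPM on average in every type and were left out.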

How the data were processed

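Raw UMI counts per gene and cell were deposited by the authors without normalization, with their names for 8 cell types and 9 subtypes. Per the submitters' processing notes, Cell Ranger 4.0.0, Seurat 3.2.3 and mm10 were used; how cells were filtered and named is not given in the sources used here. Members and gene lists were chosen with earlier results of these data known. Counts were summed per mouse and type (at least 20 cells), and 0.5 counts were added to each sum before log2 ratios. The share of positive cells was also computed at 1500 UMIs per cell (the mean share that random thinning gives), which left out 327 of 13362 typed cells. B cells without a type were cells with no EYFP UMI and at least 3 UMIs of Cd79a, Cd79b and Ms4a1. No cell was removed and no doublet caller was run. Time points were compared per type with edgeR 4.0.16 (robust quasi-likelihood test, TMM, filterByExpr; R 4.3.3), with DESeq2 1.42.0 as an alternative. The fit was tested on simulated data. The mouse was the replicate; p-values measure the spread between 2 mice per group. Named genes were all members and, from each list and comparison, up to 4 genes called with at least 10 CPM in the higher type, plus the 3 genes most like each member; values given for a gene in a further comparison follow from its being named in one. Alternatives were other scalings, added counts, cell filters and leaving out mice.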

Additional observations from a re-analysis of the deposited data

How the results depend on the processing

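Ratios between types under alternative settings were counted only for members called in the main setting. Of these 256 ratios, 230 moved by less than the spread over mice and 25 moved by more. The remaining 1 changed sign (Ccnd3 in Acinar/MucinDuctal against Acinar cells, -0.21 with mean UMIs per cell). Leaving out 1 mouse or keeping 1 time point cannot move a mean by as much as the spread over the 4 mice. Those settings could only fall among the 230, which is therefore no measure of how stable the ratios are. Of the 54 shares of cells recomputed, 49 moved with the depth or filter. The count of members called kept within 1.5 times of the main count in 77 of 93 settings, which does not mean that the members were the same: in Tuft against MucinDuctal cells it stayed at 4 in cells without a proliferation UMI, but with 2 higher and 2 lower, Cdkn1c (0.96) not among them. For MucinDuctal against Acinar cells it was 1 with TMM scaling, 1 with a library size without acinar enzymes and 5 in the 4-week mice alone (chosen after seeing the data), against 3. For Acinar/MucinDuctal against Acinar cells, again 3, it was 0 with TMM scaling, with the enzymes left out and with mean UMIs per cell, 1 in cells without a proliferation UMI, 6 in the 4-week mice alone and 3 to 5 with 1 mouse left out, the 5 without 2-week mouse 2. For Acinar.Prolif against Acinar cells, 1 member, it was 2 in the 2-week mice alone, 2 in the 4-week mice alone and 1 to 2 with 1 mouse left out, the 2 without 4-week mouse 2. For Ductal-like against MucinDuctal cells, 1 member, it was 3 with mean UMIs per cell, 2 with 2 counts added, 4 in the 4-week mice alone and 1 to 4 with 1 mouse left out, the 4 without 2-week mouse 2. The cause was not tested, but fewer mice make the rule easier to meet.

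Genes called over time numbered, with DESeq2, 15 in Acinar, 2 in Acinar.Prolif, 23 in Acinar/MucinDuctal, 40 in MucinDuctal, 31 in Tuft and 13 in EEC cells. Without a low-count filter they numbered 286, 51, 128, 6, 266 and 74, and 81 in Ductal-like cells. With the library size without acinar enzymes they numbered 6 in Acinar and 11 in EEC cells, and without robust fitting 0 in Acinar.Prolif cells. With 1 mouse left out they ranged from 13 to 129 in Acinar, 5 to 143 in Acinar.Prolif, 0 to 122 in Acinar/MucinDuctal, 0 to 191 in MucinDuctal, 0 to 230 in Ductal-like, 5 to 273 in Tuft and 0 to 366 in EEC cells; the lone mouse left is assumed to vary like the others. The highest counts came without 2-week mouse 1, except in Acinar cells, where it was without 2-week mouse 2. Ccnd1 over time in Acinar.Prolif cells (0.02) was -0.12 with DESeq2, -0.11 without enzymes, -0.74 without 2-week mouse 1 and -0.55 without 4-week mouse 2, and was called without 2-week mouse 2 (0.978, edgeR adjusted p = 0.0258). Results over time were counted only for pairs of member and type with an unadjusted p, or an adjusted p in an alternative, under 0.05. Of these 80 member results, 66 kept direction and call, 8 gained a call and 6 changed sign. In EEC cells, Ccnd2 was 1.05 without 2-week mouse 1 and -0.44 without 2-week mouse 2, and Cdkn1c 0.969 and -0.15. The other gained calls were Ccnd1 in MucinDuctal cells with DESeq2 and, as for Cdkn1a there, without 2-week mouse 1, Ccnd1 in Ductal-like cells without 2-week mouse 1 (1.33, edgeR adjusted p = 0.0027; 0.03 to 1.33 with 1 mouse left out) and Cdkn1c in Tuft cells without a low-count filter (-0.63, edgeR adjusted p = 0.0225; -1.15 to -0.22 with 1 mouse left out). No paired analysis was possible because the replicate numbers only follow the order of the samples. With 2 mice per time point, changes of members within about their spread cannot be seen.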
